A study of Mus musculus with 8 samples.

Results

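The miRNAs that differ between mouse embryonic stem cells (ESC) and their retinoic acid-differentiated descendants (RA-DIFF) were compared in cells labelled wild type, the parental line of a study of the Huntington's disease gene orthologue Htt. Small RNA counts were deposited for 1073 mature miRNAs, and the comparison covers the 846 with at least 10 counts in either the ESC or the RA-DIFF library labelled wild type; 227 fell short of that limit. Of these, 17 miRNAs had exactly 10 counts in their higher library and 23 entries stopped at 9. The ESC were grown with leukemia inhibitory factor on irradiated feeder fibroblasts or gelatin and passaged 4 times without feeders before embryoid bodies were formed. Embryoid bodies were kept for 8 days with 5 μM retinoic acid from day 4, then dissociated, plated on poly-ornithine and laminin, and collected 2 hours later as RA-DIFF. A second line, labelled Htt-null and homozygous for the Hdh ex4/5 targeted allele, was taken through the same steps. Each of the 4 conditions had 1 library, so that the differences below carry no test. Log2 ratios of named miRNAs with 1 to 24 counts in one of the libraries labelled wild type are given with exact Clopper-Pearson 95% intervals on the TMM scale. For the 366 miRNAs with at least 100 counts in both libraries, no interval reached further than 0.38 from its log2 ratio. The intervals cover counting error alone, and PCR-amplified reads are not independent molecules.

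Htt mRNA was at 164 CPM in ESC labelled wild type and 114 CPM in ESC labelled Htt-null, but at 74.3 CPM in RA-DIFF labelled wild type and 96.3 CPM in RA-DIFF labelled Htt-null. The RA-DIFF order goes against the labels, and whether the small RNA labels share the problem was not tested. "The RA-DIFF library" and "the ESC library" hereafter mean the libraries labelled wild type. Marker mRNAs of the RNA libraries with the same labels followed the stage: the pluripotency factors Pou5f1 (747 CPM to 12 CPM) and Nanog (705 CPM to 9.13 CPM) were lower in RA-DIFF, and the neural intermediate filament gene Nes (6.28 CPM to 586 CPM) and neuronal tubulin Tubb3 (33.5 CPM to 887 CPM) were higher.

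A miRNA is a short RNA cut from one arm of a hairpin by Drosha and Dicer and loaded into an Argonaute protein. It pairs with target mRNAs mainly through its seed, bases 2 to 8 from its 5′ end, and lowers their translation and stability, so miRNAs with the same seed share many potential targets. Arms are named 5p and 3p after their side of the hairpin. Mouse ESC are known for the miR-290 to miR-295 cluster, and retinoic acid is known to switch on Hox clusters, in which the miR-10 genes lie.

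The sequences below are the mature forms held by RefSeq (GRCm38.p6), which has 720 of the 846 miRNAs, printed 5′ to 3′ with the seed in capitals. The miR-10 pair is shown because it made up most of the RA-DIFF library. The sequences differ at 1 base outside the seed (U12A, counted from 1 at the 5′ end, miR-10a-5p first), and the mapping allowed 1 difference, so a read with an error there can be counted for the other.
miR-10a-5p: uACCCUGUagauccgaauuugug
miR-10b-5p: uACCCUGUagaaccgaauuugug

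Members of the ESC seed family are shown because those of chromosome 7 and those of chromosome 3 went opposite ways.
miR-291a-3p: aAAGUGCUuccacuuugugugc
miR-294-3p: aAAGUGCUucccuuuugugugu
miR-295-3p: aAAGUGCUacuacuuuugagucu
miR-302b-3p: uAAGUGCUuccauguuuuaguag
miR-302d-3p: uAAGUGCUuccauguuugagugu

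The miR-182 group is shown because it supplied much of the ESC library.
miR-182-5p: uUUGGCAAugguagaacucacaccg
miR-183-5p: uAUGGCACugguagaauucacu
miR-96-5p: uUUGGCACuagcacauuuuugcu

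The miR-181 and the miR-99 and miR-100 families are shown because members with one seed, encoded at different loci, had unlike ratios.
miR-181a-5p: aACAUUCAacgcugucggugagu
miR-181b-5p: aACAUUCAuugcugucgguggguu
miR-181c-5p: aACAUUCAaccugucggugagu
miR-181d-5p: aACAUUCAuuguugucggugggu
miR-99a-5p: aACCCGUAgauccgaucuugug
miR-99b-5p: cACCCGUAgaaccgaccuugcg
miR-100-5p: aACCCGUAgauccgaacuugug

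The last set is shown because these miRNAs were nearly absent from the ESC library and well counted in RA-DIFF.
miR-219a-5p: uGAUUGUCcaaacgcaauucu
miR-216b-5p: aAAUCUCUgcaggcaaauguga
miR-217-5p: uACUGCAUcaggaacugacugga
miR-135a-5p: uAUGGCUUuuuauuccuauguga

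The ESC library held 12888905 counts and the RA-DIFF library 25656673. miR-10a-5p (chromosome 11, positions 96317186 to 96317208 of GRCm38, plus strand, in the Hoxb cluster) had 23372 counts in ESC and 9846694 in RA-DIFF. miR-10b-5p (chromosome 2, positions 74726074 to 74726096, plus strand, within the annotated span of Hoxd3 and of Hoxd4) had 33115 and 10657770. The pair therefore made up 0.438% of the ESC library and 79.9% of the RA-DIFF library (Wilson 95% interval 79.90% to 79.93%), which leaves 12832418 and 5152209 counts for all other miRNAs. A gain of this size lowers every other share of the library total, so each ratio was set on 3 scales: the TMM factors of edgeR over the 4 small RNA libraries, the full library total, and the total without miR-10a-5p and miR-10b-5p. Relative to TMM, every log2 ratio is 1.17 lower on the full total and 1.14 higher without the pair. The median log2 ratio of RA-DIFF over ESC was -0.13 on the TMM scale, -1.29 on the full total and 1.02 without the pair. The 10 most abundant miRNAs took 67.7% of the ESC library and 87.8% of the RA-DIFF library. Without the miR-10 pair, the leading 10 of RA-DIFF took 44.7% (miR-92a-3p, miR-181a-5p, miR-127-3p, miR-92b-3p, miR-182-5p, miR-9-5p, miR-30e-5p, miR-434-3p, miR-26a-5p and miR-298-5p), so that RA-DIFF was otherwise the more even library.

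**Figure D1:**
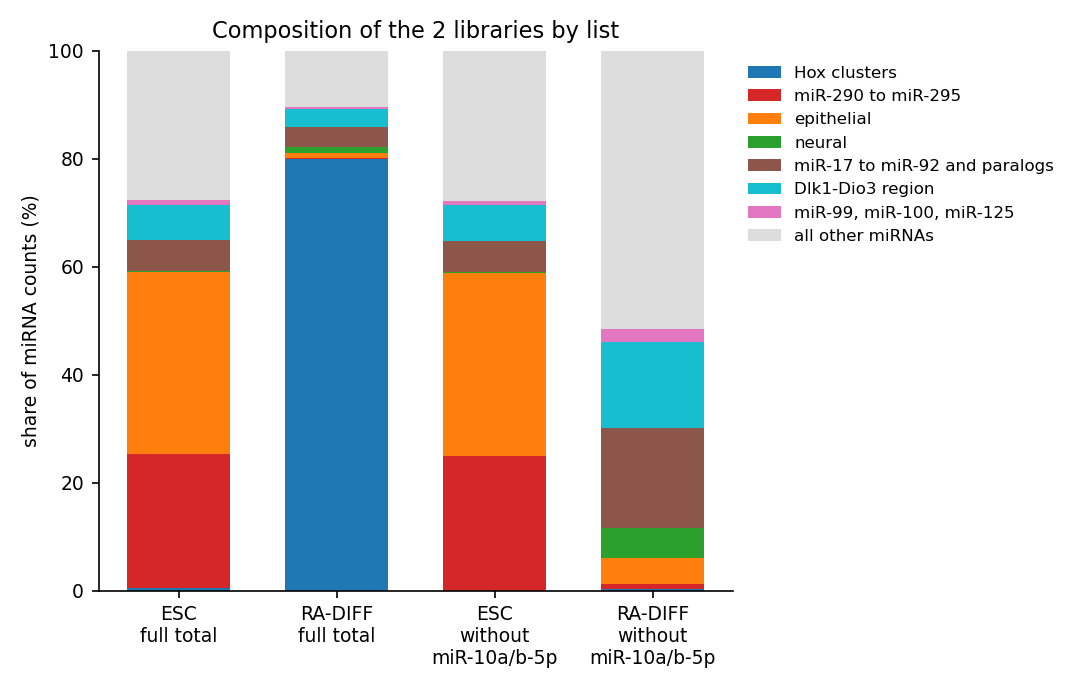
Share of miRNA counts (%, vertical axis) taken by 7 lists of miRNAs in the ESC and RA-DIFF libraries labelled wild type, with the full library total (left pair of bars) and without miR-10a-5p and miR-10b-5p (right pair). The Hox list fills 80.0% of the RA-DIFF bar on the full total, and without the miR-10 pair the epithelial list falls from 33.8% in ESC to 4.69% in RA-DIFF while the neural list goes from 0.151% to 5.64%. Most counts of the epithelial list come from the miR-182 group.

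A miRNA was called when its log2 ratio was past 0.75, the size limit of the study's methods. On the TMM scale, 283 miRNAs (33.5% of the 846) were higher in RA-DIFF and 306 (36.2%) were lower. On the full total 150 (17.7%) were higher and 509 (60.2%) lower, and without the miR-10 pair 475 (56.1%) were higher and 167 (19.7%) lower. Past the limit on all 3 scales were 150 higher miRNAs (17.7%) and 167 lower ones (19.7%), and the shares of members called below are read against these values. For 376 miRNAs the direction itself turned with the scale. No cultures of one condition were repeated. As a measure of how far libraries differ, among 329 miRNAs with at least 100 counts in all 4 libraries, the median absolute log2 ratio (TMM) was 0.95 between RA-DIFF and ESC, against 0.54 between the ESC libraries of the 2 lines and 0.37 between their RA-DIFF libraries. At the limit of 0.75, 59.6% of the 329 were past it between the stages, 34% between the ESC libraries and 21.9% between the RA-DIFF libraries, so that a ratio near the limit lies within what separates libraries of one stage.

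**Figure D2:**
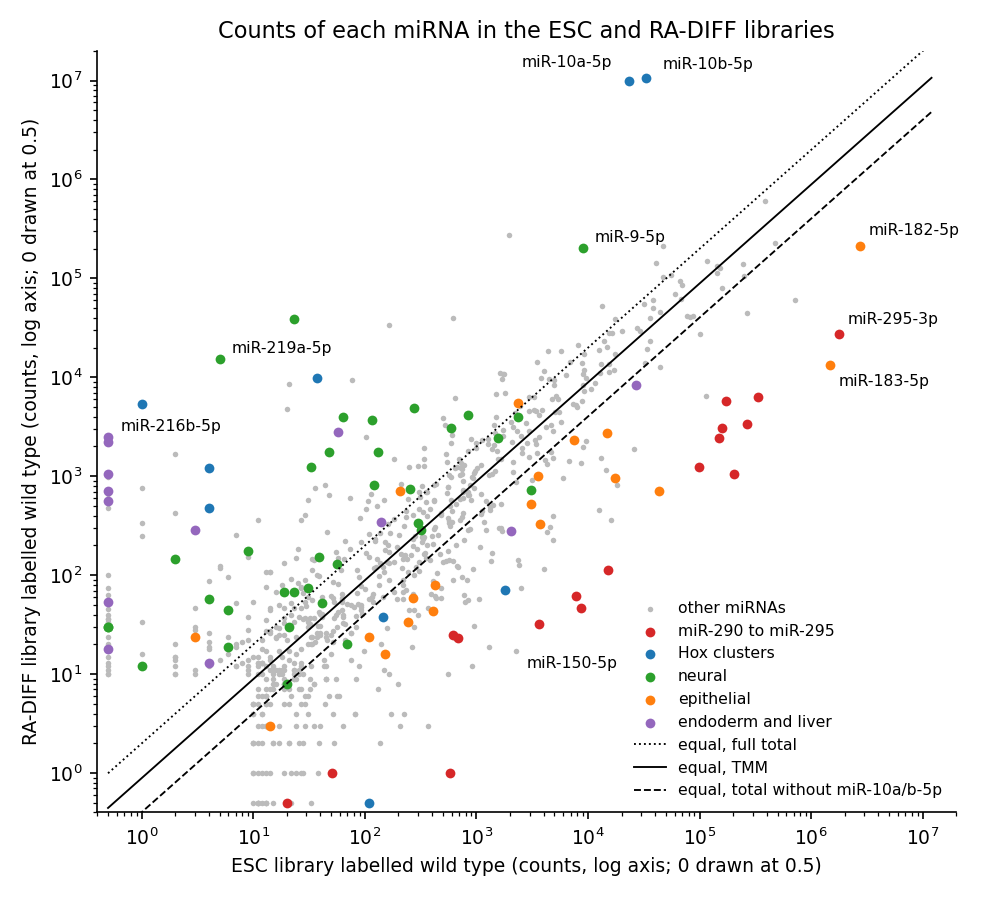
Counts of the 846 miRNAs in the ESC (horizontal) and RA-DIFF (vertical) libraries labelled wild type, both log axes, with 0 drawn at 0.5. The lines mark equal level on each of the 3 scales; miR-10a-5p and miR-10b-5p lie far above all 3, and the miR-290 to miR-295 cluster lies below all 3.

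miRNAs of the Hox clusters, which lie among the homeobox genes that set position along the body axis, were split by locus. Of the 9 measured, 6 were higher and 2 lower on all 3 scales (median log2 ratio 8.22 on the TMM scale, -0.13 over all members). With the miR-10 5p forms at log2 ratios of 8.89 (miR-10a-5p) and 8.50 (miR-10b-5p), 475-fold and 363-fold, their 3p forms moved as well: miR-10b-3p had 4 counts in ESC and 1207 in RA-DIFF, a log2 ratio of 8.41 with an interval of 7.05 to 10.29. miR-10a-3p had 1 count in ESC and 5350 in RA-DIFF, a log2 ratio of 12.56 with an interval of 10.08 to 17.86. Both arms of both hairpins were thus far higher in RA-DIFF. miR-615-3p, encoded within Hoxc5 (chromosome 15, positions 103014969 to 103014990, plus strand), had 37 counts in ESC and 9779 in RA-DIFF (log2 ratio 8.22), and its 5p form 4 and 476. The mRNA of the host Hoxc5 went from 1 count to 134. miR-196a-5p, from the posterior side of the Hox clusters, ran the other way with 1801 counts in ESC and 71 in RA-DIFF (log2 ratio -4.49). Its relative miR-196b-5p had 147 and 38 counts (log2 ratio -1.78). Among Hox miRNAs, then, miR-10 and miR-615 were higher in RA-DIFF and miR-196 was lower. The mRNAs of Hoxb4 (16 counts to 1053) and Hoxd4 (4 counts to 72), neighbours of the miR-10 genes, were higher in RA-DIFF too.

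The miR-290 to miR-295 cluster, a major source of miRNAs in mouse ESC and a regulator of their cell cycle, was lower throughout. All 17 measured miRNAs were past the limit on all 3 scales, with log2 ratios from -7.42 to -2.57 and a median of -5.87 (TMM). Among them, miR-290b-3p, miR-292b-3p and miR-292b-5p lie on the minus strand, opposite to the other members, and the value of -2.57 is from one of these. The summed share of the cluster went from 24.9% of the ESC library to 0.198% of the RA-DIFF library, or 0.986% without the miR-10 pair. miR-295-3p, its most abundant member, had 1789041 counts in ESC and 27199 in RA-DIFF (log2 ratio -5.87, 58.4-fold lower). miR-291a-5p had 201958 and 1051 counts (log2 ratio -7.41). miR-294-3p had 268591 and 3369 (log2 ratio -6.15). miR-292a-5p had 331143 and 6379 (log2 ratio -5.53). The cluster was lower in RA-DIFF without exception, on both arms. With the RA-DIFF library labelled Htt-null set against the same ESC library its median log2 ratio was -4.82. Within the line labelled Htt-null it was -4.48. Of the 12 largest decreases among miRNAs with at least 1000 counts, 8 came from this cluster: miR-291a-5p, miR-295-5p, miR-290a-5p, miR-294-5p, miR-290a-3p, miR-291a-3p, miR-294-3p and miR-295-3p. In single-locus hairpins within 10000 bases of each other, the 14 miRNAs on chromosome 7 between positions 3218639 and 3220837 (plus strand) were lower together, with none above a log2 ratio of -4.46.

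The miR-302 and miR-367 cluster, which carries the same seed in several members and is known from the epiblast and from primed pluripotent cells, did not move with it. Of 8 measured members, 7 were past the limit upward on the TMM scale and 3 on all 3 scales (median log2 ratio 1.74). miR-302d-3p had 1508 counts in ESC and 3972 in RA-DIFF (log2 ratio 1.57), and miR-302b-3p had 528 and 3288 (log2 ratio 2.81). miR-302a-3p had 300 and 1268 (log2 ratio 2.25). The cluster made up 0.0194% of the ESC library and 0.0349% of the RA-DIFF library, or 0.174% of the latter without the miR-10 pair. In the line labelled Htt-null, where the ESC library held 5120 counts of miR-302d-3p and the RA-DIFF library 1169, the list median was -1.34. miR-302b-3p had 1462 and 1007 counts there (log2 ratio 0.32). The direction for this cluster therefore rests on which libraries are compared. When the RA-DIFF library labelled Htt-null was set against the same ESC library, the median was 0.46. The RA-DIFF library labelled wild type also held more Pou5f1 mRNA than the one labelled Htt-null (12 CPM against 1.22 CPM). The miR-290 to miR-295 cluster went the other way, at 0.198% of the RA-DIFF library labelled wild type and 0.354% of the one labelled Htt-null. Without the miR-10 pair these shares were 0.986% and 2.115%. The part of any remaining pluripotent cells in these values was not tested.

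Seen as one seed family, the AAGUGCU members with a sequence in RefSeq (miR-291a-3p, miR-294-3p, miR-295-3p, miR-302b-3p and miR-302d-3p) summed to 2159599 counts in ESC and 39079 in RA-DIFF, a log2 ratio of -5.62. The 3 members from chromosome 7 were lower and the 2 from chromosome 3 were higher. In RA-DIFF the chromosome 3 members supplied a visible part of the family, with 3972 and 3288 of the 39079 counts. The 5p-arm family of the same chromosome 7 cluster, with the seed CUCAAAC (miR-290a-5p, miR-292a-5p and miR-293-5p), went from 519241 to 12213 counts, a log2 ratio of -5.24.

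The miR-17 to miR-92 clusters and their paralogues, known as growth-promoting miRNAs of dividing cells, stayed near the centre of the distribution. Of 28 members, 7 were higher and 5 lower on the TMM scale, none was higher and 2 were lower on all 3, and 20 changed direction with the scale. miR-92a-3p had 386067 counts in ESC and 606148 in RA-DIFF, the highest count in RA-DIFF after the miR-10 pair. Its log2 ratio was 0.82 on the TMM scale, -0.34 on the full total and 1.97 without the miR-10 pair, and thus no direction can be given for it. Its seed-mate miR-92b-3p, from another locus, had 47137 and 214154 counts and was higher on all 3 scales (log2 ratio 2.36 TMM). miR-25-3p with 144898 and 112668 counts turned with the scale (log2 ratio -0.19 TMM), and miR-32-5p with 1418 and 512 was lower (log2 ratio -1.30 TMM). The AUUGCAC seed family as a whole summed to 588493 counts in ESC and 944397 in RA-DIFF, or 4.57% and 3.68% of the full totals and 4.59% and 18.3% without the miR-10 pair.

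Epithelial miRNAs, a list of the miR-200 family, the miR-183, miR-96 and miR-182 cluster, miR-203 and miR-205, were mostly lower. Of 19 members, 16 were lower on the TMM scale and 14 on all 3 scales (median log2 ratio -2.26). The summed share went from 33.7% of the ESC library to 0.942% of the RA-DIFF library, or from 33.8% to 4.69% without the miR-10 pair. That share is mostly the miR-182 group (miR-182, miR-183 and miR-96), with 4291793 of the list's 4342165 counts in ESC and 227658 of 241584 in RA-DIFF. miR-182-5p was the most abundant miRNA of the ESC library with 2766434 counts, and had 213187 in RA-DIFF (log2 ratio -3.53, 11.5-fold lower). miR-183-5p had 1477722 counts in ESC and 13362 in RA-DIFF (log2 ratio -6.62, 98.2-fold lower). miR-96-5p had 43286 and 704 (log2 ratio -5.77). These 3 lie side by side on chromosome 6, positions 30165923 to 30169732, minus strand, and miR-182-5p was less far down than the other two. Of the miR-200 members, which restrain the Zeb factors that repress E-cadherin, miR-200b-3p had 14958 and 2764 counts (log2 ratio -2.26), miR-141-3p 17634 and 952 (log2 ratio -4.04), and miR-429-3p 7527 and 2314 (log2 ratio -1.53). The exceptions were miR-205-5p, with 2371 and 5469 counts (log2 ratio 1.38), and both arms of miR-203, of which miR-203-3p had 205 and 705 (log2 ratio 1.95).

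Neural miRNAs were mostly higher. Of 35 members, 28 were higher and 3 lower on the TMM scale, and 21 were higher and 1 lower on all 3 (median log2 ratio 2.50). Their summed share went from 0.151% to 1.13% of the library, or to 5.64% without the miR-10 pair. miR-9-5p, a miRNA of neural progenitors encoded at 3 loci, had 8956 counts in ESC and 201355 in RA-DIFF (log2 ratio 4.66, 25.3-fold higher). miR-219a-5p, known from the oligodendrocyte lineage, had 5 and 15187 (log2 ratio 11.74, interval 10.52 to 13.36). miR-219a-2-3p, of the same name but another arm, had 23 and 39043 (log2 ratio 10.90, interval 10.32 to 11.56). The miR-219 forms were close to the counting floor in ESC and among the abundant neural miRNAs in RA-DIFF.

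Other neural members ranged widely. miR-153-3p, encoded within the neuroendocrine gene Ptprn2, had 64 counts in ESC and 4018 in RA-DIFF (log2 ratio 6.14), and Ptprn2 mRNA had 103 and 5744. miR-218-5p, a motor neuron miRNA, had 833 and 4172 (log2 ratio 2.50), and miR-138-5p 587 and 3053 (log2 ratio 2.55). miR-124-3p, the classical miRNA of postmitotic neurons, had 1576 and 2417 (log2 ratio 0.79 TMM) and changed sign on the full total. Its 5p form had 275 and 4842 counts (log2 ratio 4.31). miR-7a-5p was the member lower on all 3 scales, with 3067 and 731 counts (log2 ratio -1.90).

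**Figure D3:**
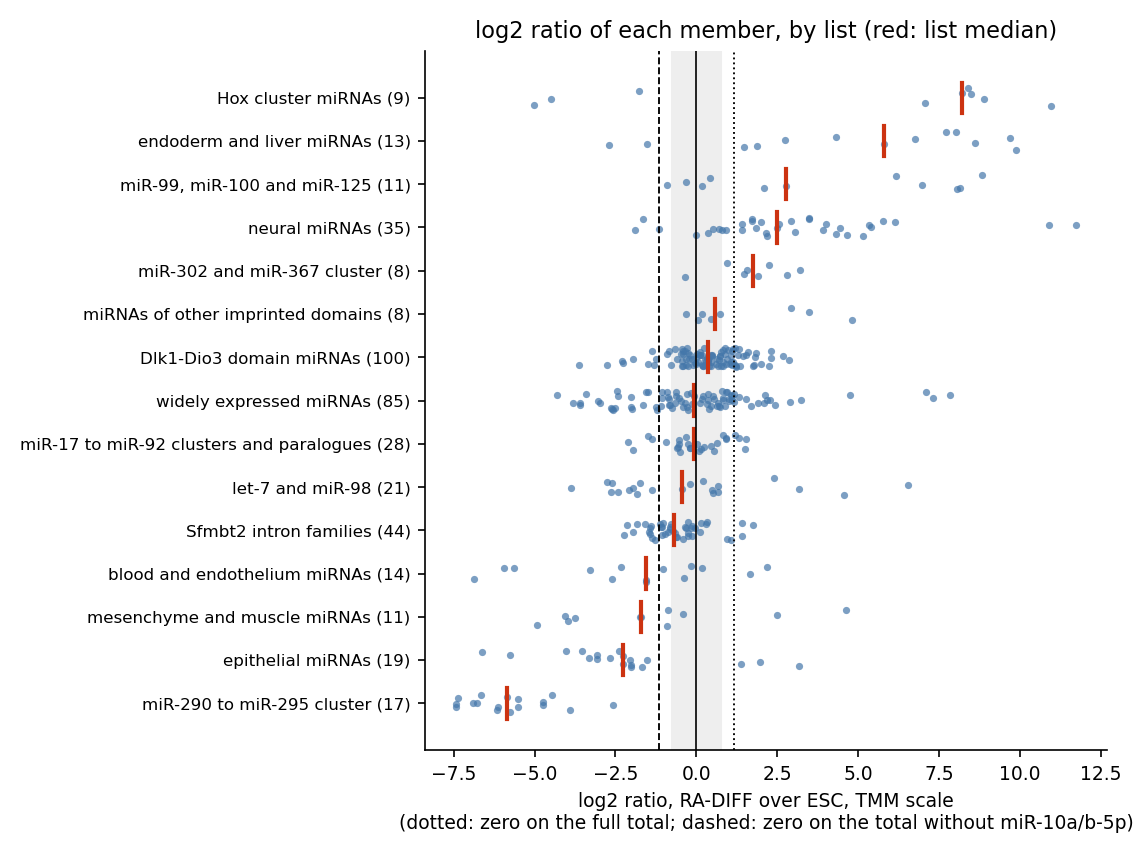
log2 ratio of RA-DIFF over ESC on the TMM scale (horizontal) for each member of 15 lists (rows, number of members in brackets), with list medians in red and the range within the limit of 0.75 shaded. The dotted and dashed lines show where 0 would lie on the full total and without the miR-10 pair; all members of the miR-290 to miR-295 cluster lie left of all 3 zero lines, and the Dlk1-Dio3 and widely expressed lists straddle them.

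The miR-99, miR-100 and miR-125 miRNAs, which share polycistrons with let-7 genes, separated by locus. Of 11 members, 7 were higher on all 3 scales and none was lower on all 3 (median log2 ratio 2.77, TMM). miR-99a-5p, on chromosome 16 (positions 77598940 to 77598961, plus strand) within the host transcript Mir99ahg, had 21 counts in ESC and 8560 in RA-DIFF (log2 ratio 8.84, interval 8.23 to 9.54). miR-100-5p, on chromosome 9 (positions 41531437 to 41531458, plus strand) within 2610203C20Rik, had 620 and 39526 (log2 ratio 6.17). The sequences of miR-99a-5p and miR-100-5p differ at 1 base (U16A, miR-99a-5p first), so a read with an error there can be counted for the other. miR-99b-5p, with the same seed but on chromosome 17, had 87511 and 41817 counts (log2 ratio -0.89 on the TMM scale, 0.25 without the miR-10 pair). The family summed to 88152 counts in ESC and 89903 in RA-DIFF, a log2 ratio of 0.20 on the TMM scale. Its share was 0.684% and 0.350% of the full totals, and 0.687% and 1.74% without the miR-10 pair, so that the direction of the sum turned with the scale. miR-125b-5p, encoded next to miR-99a and miR-100, had 1768 and 10714 (log2 ratio 2.77), and miR-125a-5p, encoded next to miR-99b, had 17376 and 17243 (log2 ratio 0.16).

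The miR-181 family showed the same division. miR-181a-5p, encoded on chromosomes 1 and 2, had 1953 counts in ESC and 273665 in RA-DIFF, a log2 ratio of 7.30 and the fourth highest count in RA-DIFF. miR-181b-5p from the same loci had 166 and 33948 (log2 ratio 7.85). miR-181c-5p, on chromosome 8 (positions 84178924 to 84178945, minus strand), had 81424 and 40630 (log2 ratio -0.83), and its neighbour miR-181d-5p 15503 and 11346 (log2 ratio -0.28). The chromosome 8 members turned with the scale, and the others were higher on all 3 scales. The family, with the seed ACAUUCA, summed to 99046 and 359589 counts (log2 ratio 2.03 TMM), or 0.768% and 1.40% of the full totals.

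let-7 miRNAs, which restrain proliferation genes and whose maturation is blocked by the RNA-binding proteins Lin28a and Lin28b, had directions that depended on the scale. Among the 9 forms with the GAGGUAG seed, none was past the limit upward and 4 were past it downward on the TMM scale, with log2 ratios from -2.77 to 0.68. On the full total none was higher and 6 were lower, and without the miR-10 pair 4 were higher and 2 lower. The family summed to 36042 counts in ESC and 30279 in RA-DIFF, or 0.280% and 0.118% of the full totals and 0.281% and 0.588% without the pair. let-7c-5p had 9301 and 11880 counts (log2 ratio 0.52 TMM, 1.67 without the pair), and let-7a-5p 5225 and 6460 (log2 ratio 0.48 TMM, 1.62 without the pair). let-7f-5p had 8787 and 5792 (log2 ratio -0.43 TMM, 0.72 without the pair), while let-7g-5p, with 6792 and 1438 (log2 ratio -2.07 TMM), was lower on all 3 scales. Each of these let-7 forms has a near-identical mature sequence in RefSeq, so their reads can be lost or exchanged. Over all 21 let-7 and miR-98 entries, 4 were higher and 7 lower on all 3 scales, and the 4 higher ones were low-count forms led by let-7c-1-3p with 1 count in ESC and 250 in RA-DIFF. Lin28a mRNA went from 255 CPM in ESC to 26.3 CPM in RA-DIFF, while Lin28b mRNA was at 37.5 CPM and 44.2 CPM. In the line labelled Htt-null the median over the let-7 and miR-98 entries was 1.10 on the TMM scale, against -0.43 here. When the RA-DIFF library labelled Htt-null was set against the ESC library labelled wild type it was 0.75, so that its direction also rests on the RA-DIFF labels. In RA-DIFF of the line labelled Htt-null, Lin28b mRNA was at 14.8 CPM.

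Genes of miRNA processing were read from the RNA libraries with the same labels. Between ESC and RA-DIFF, their mRNA log2 ratios on library totals were -0.59 for Drosha, -0.47 for Dicer1, -0.51 for Xpo5, the exporter of hairpins, -0.76 for the Argonaute gene Ago2 and 0.02 for Dgcr8, the partner of Drosha.

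Endoderm and liver miRNAs held several of the largest increases. Of 13 members, 11 were higher and 2 lower on the TMM scale, and 9 and 1 on all 3 scales (median log2 ratio 5.8). The higher members include both arms of miR-216a, miR-216b and miR-217, which lie in one stretch of chromosome 11 (positions 28746204 to 28763820). The sum over the list went the other way on the TMM scale, from 29268 to 19147 counts (log2 ratio -0.44), and miR-192-5p supplied most of it in ESC. It made up 0.227% and 0.0746% of the full totals, and 0.228% and 0.372% without the miR-10 pair. miR-216b-5p (chromosome 11, positions 28746204 to 28746225, plus strand), a pancreatic miRNA, had no count in ESC and 2495 in RA-DIFF. With a count of 0 taken as up to 3, it was at least 937-fold higher on the TMM scale, a log2 ratio of at least 9.87, or at least 8.71 on the full total. miR-217-5p, from the same stretch of chromosome 11 (positions 28763761 to 28763783), had 0 and 2197, a log2 ratio of at least 9.69 (TMM) or 8.52 (full total). miR-216a-3p had 0 and 1055, at least 8.63 (TMM) or 7.46 (full total) on the same scales. None of these 3 miRNAs was detected in either ESC library. miR-375-3p, a miRNA of islet and neuroendocrine cells, had 57 and 2822 counts (log2 ratio 5.8). The liver miRNA miR-122-5p had 3 and 288. In contrast, the intestinal and hepatic miR-192-5p was lower, with 27023 and 8307 counts (log2 ratio -1.53), as was miR-194-5p with 2034 and 278 (log2 ratio -2.70).

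Mesenchymal and muscle miRNAs, which would also mark feeder fibroblasts, were higher in ESC for the most abundant members. Of 11 members, 8 were lower and 2 higher on the TMM scale and 4 lower and 2 higher on all 3 scales (median log2 ratio -1.70). With at least 100 counts in either library the median was lower by 2.15. miR-143-3p had 114517 counts in ESC and 6508 in RA-DIFF (log2 ratio -3.97), miR-145a-5p 846 and 56 (log2 ratio -3.75), and miR-199a-5p 4005 and 116 (log2 ratio -4.94). The fibroblast mRNAs ran the other way, since Col3a1 went from 208 to 40789 counts and Col1a1 from 831 to 5295. In the line labelled Htt-null the median over the whole list was 0.08, and with the RA-DIFF labels exchanged it was -0.08. In that line miR-143-3p, miR-145a-5p and miR-199a-5p were still lower, at -1.74, -1.94 and -1.83. With exchanged labels they were at -2.37, -2.99 and -2.51. miR-199a-3p was higher in both settings, at 1.78 and 1.49. Carry-over of feeder cells into the ESC library was not tested. miR-206-3p (0 and 15 counts) and miR-133a-3p (4 and 87 counts), both of muscle, were the higher members.

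Blood and endothelial miRNAs were lower for 9 of 14 members on the TMM scale and 6 on all 3 scales, and higher for 2 and 1 (median log2 ratio -1.55). miR-150-5p, a lymphocyte miRNA, had 2265 counts in ESC and 17 in RA-DIFF (log2 ratio -6.89, interval -7.67 to -6.20). miR-142a-5p, found in all blood lineages, had 557 and 10 (log2 ratio -5.63, interval -6.70 to -4.74), and its 3p form 207 and 3. The red cell miRNA miR-451a had 17 and 2, and miR-223-3p of granulocytes 10 and 0. These levels are small parts of the ESC library, and their source was not tested. The endothelial miR-126a-3p, with 1286 and 1027 counts, had a log2 ratio of -0.15 and turned with the scale.

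Widely expressed miRNAs behaved as the bulk did. Of 85 members, 28 were higher and 29 lower on the TMM scale, 11 and 16 on all 3 scales, and 49 turned with the scale (median log2 ratio -0.07). miR-191-5p, the fourth most abundant ESC miRNA and a member of no list, stood apart from them with 713888 counts in ESC and 60390 in RA-DIFF (log2 ratio -3.39). miR-27b-3p, with 265723 and 44311 counts (log2 ratio -2.41), was lower on all 3 scales, as were its neighbours: the miR-23b group on chromosome 13 had 4 of 5 members lower on all 3 scales and the related miR-23a group on chromosome 8 had 4 of 5. miR-148a-3p (252671 and 105164 counts, log2 ratio -1.09) and miR-30e-5p (117187 and 151257 counts, log2 ratio 0.54) turned with the scale. The CAGUGCA seed family of miR-148a-3p, miR-148b-3p and miR-152-3p summed to 286046 counts in ESC and 119619 in RA-DIFF (log2 ratio -1.09 TMM), which is 2.22% and 0.466% of the full totals and 2.23% and 2.32% without the miR-10 pair. The miR-30 seed members with a sequence in RefSeq (miR-30e-5p, miR-30a-5p, miR-30c-5p and miR-384-5p, seed GUAAACA) summed to 194929 and 183776 counts (log2 ratio 0.09 TMM), or 1.51% and 0.716% of the full totals and 1.52% and 3.57% without the pair. Of these, the neural-enriched miR-384-5p had 0 counts in ESC and 662 in RA-DIFF, and miR-30a-5p had 44153 and 12573 (log2 ratio -1.64 TMM, -0.50 without the miR-10 pair).

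In imprinted regions most directions turned with the scale. In the Dlk1-Dio3 domain of chromosome 12, 37 of 100 miRNAs were higher and 12 lower on the TMM scale, but 6 and 5 on all 3 scales, and 71 turned (median log2 ratio 0.36, and -1.47 in the line labelled Htt-null). Its most abundant member, miR-127-3p, had 478156 and 227985 counts (log2 ratio -0.90 TMM, 0.25 without the miR-10 pair), and miR-434-3p with 40407 and 144504 was higher on all 3 scales (log2 ratio 2.01 TMM). Of 8 miRNAs in other imprinted domains, 3 were higher on all 3 scales, led in counts by miR-335-5p of the Mest intron with 1636 and 11062 (log2 ratio 2.93). The Sfmbt2 intron families had 5 of 44 members higher and 21 lower on the TMM scale, and none higher and 3 lower on all 3 (median log2 ratio -0.69).

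Some neighbouring hairpins went together. Of 19 groups of at least 3 single-locus hairpins on one strand with gaps of at most 10000 bases, 5 had all members past the TMM limit downward. Beside the miR-290a and miR-182 groups and the miR-429 group of the miR-200 family, these were the miR-23a group and the miR-743a group of the X chromosome. The last, between positions 66776760 and 66814017 on the minus strand, had 20 members, 19 of them lower on all 3 scales, and went from 26918 counts in ESC to 1046 in RA-DIFF. It holds miR-871-3p, with 16183 and 359 counts (log2 ratio -5.32). The miR-500 group, also on the X chromosome (positions 7237695 to 7248477, minus strand, within Clcn5), had 9 of 10 members higher on the TMM scale and 5 on all 3, and went from 4364 to 16699 counts while Clcn5 mRNA went from 1817 to 6805. In the line labelled Htt-null the medians of the miR-743a and miR-500 groups were -1.63 and 1.24, against -3.42 and 1.86 here.

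Of the 423 miRNAs outside the lists, 75 (17.7%) were higher and 89 (21%) lower on all 3 scales, close to the shares over all 846. Of the 12 largest increases among miRNAs with 1000 counts or more, miR-135a-5p alone belonged to no list. It is encoded on chromosomes 9 and 10 and had 2 counts in ESC and 1680 in RA-DIFF, a log2 ratio of 9.89 with an interval of 8.03 to 12.93. Of the 12 largest decreases, miR-211-5p was the corresponding case, with 1294 and 19 counts (log2 ratio -5.92, interval -6.65 to -5.27). It lies within Trpm1, whose mRNA had 166 and 70 counts.

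Where a miRNA lies within a gene on the same strand, host and miRNA tended to move together. Over 130 host genes with 251 miRNAs, each with 100 counts or more in one of the libraries, the host log2 ratio and the median log2 ratio of its miRNAs had a Pearson correlation of 0.75 and a Spearman correlation of 0.68. The host ratios come from the RNA libraries, on library totals, and the miRNA ratios from the small RNA libraries, on the TMM scale. The correlation describes genes over these 2 pairs of libraries and is not a test over samples, and the RNA library labelled wild type RA-DIFF is the one whose Htt mRNA went against its label. The 2 ratios had the same sign for 94 of the 130 hosts, or 72.3%. This share is given for the TMM scale alone, and it depends on the scale because the sign of many miRNA ratios does. For miR-99a and its host Mir99ahg, the host had 77 and 3027 counts, and for miR-100 the host 2610203C20Rik had 153 and 34901. let-7g-5p was lower by 2.07 on the log2 scale while its host Wdr82 had 25082 and 32860 counts (log2 ratio 0.06), and miR-135b-5p had a log2 ratio of -1.28 within Lemd1 at 3.99.

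The ratio of the arms of one hairpin does not depend on the scale. In 111 hairpins with both arms at 50 or more counts in both libraries, the log2 ratio of 5p over 3p shifted by over 1 in 47 (42.3%), toward 5p in 27 and toward 3p in 20, and 16 hairpins changed their more abundant arm. The median absolute shift was 0.82. Between the ESC libraries of the 2 lines the corresponding difference was 0.23, with 2 of the same 111 hairpins past 1, and between their RA-DIFF libraries it was 0.39, with 5 past 1. The median shift between the stages was thus larger than that between libraries of a stage. All 47 shifted hairpins went in the same direction in the line labelled Htt-null, with which the 2 libraries compared here share no sample. Most of the hairpins with smaller shifts kept their direction there too, so this is not particular to the 47.

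**Figure D4:**
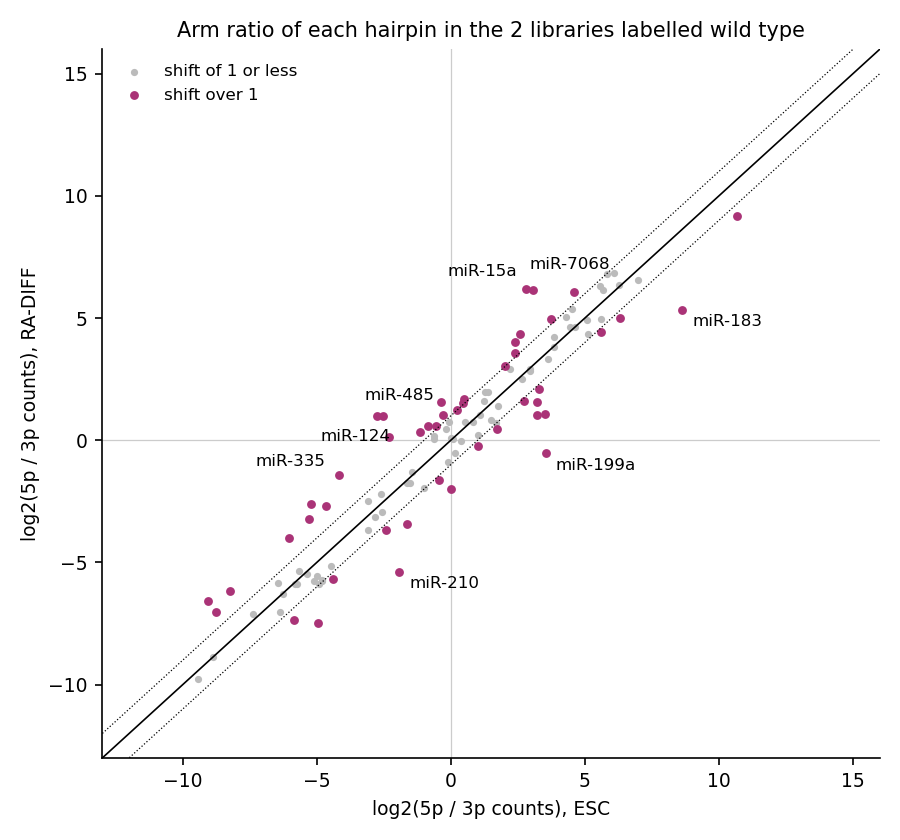
log2 of 5p over 3p counts for 111 hairpins in the ESC (horizontal) and RA-DIFF (vertical) libraries labelled wild type, with the 8 largest shifts named and dotted lines at a shift of 1. The 47 hairpins outside the dotted lines fall on both sides, 27 above and 20 below.

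The largest arm shift was that of miR-199a, whose 5p arm made up 92.0% of the hairpin's counts in ESC (4005 of 5p, 346 of 3p) and 40.7% in RA-DIFF (116 and 169). RefSeq holds another mature sequence within 1 base of its 3p form, so the uniquely mapped reads of that arm are uncertain. miR-124 went from 14.9% to 66.7% 5p (275 and 1576 counts in ESC, 4842 and 2417 in RA-DIFF). miR-485, of the Dlk1-Dio3 domain, went from 12.9% to 66.2% 5p. In these 3 hairpins the more abundant arm changed. miR-335 went from 5.27% to 27.3% 5p: its 5p form had 1636 counts in ESC and 11062 in RA-DIFF, and its 3p form 29390 and 29496, of which the 5p form was higher on all 3 scales and the 3p form turned with the scale (log2 ratio -0.99 on the full total, 1.32 without the miR-10 pair). miR-210, a miRNA of low oxygen, went from 20.6% to 2.35% 5p with 1135 and 448 counts of 5p against 4366 and 18597 of 3p. The others among the 8 largest were miR-15a, from 87.5% to 98.7% 5p, miR-7068, from 89.4% to 98.6%, and miR-183, from 99.8% to 97.6%.

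Base composition differed little between called miRNAs and the rest. The median GC content was 47.6% for the miRNAs higher on all 3 scales that have a sequence, 49.0% for the lower ones and 50.0% over all members, and the median length was 22 bases in each set. A first base of U was found in 37.4%, 45.5% and 40.1%.

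The line labelled Htt-null gave a second pair of libraries. On all 3 scales 97 of the 846 miRNAs (11.5%) were higher and 222 (26.2%) lower there. Higher in both lines were 90 miRNAs, which are 60% of the 150 in the line labelled wild type and 92.8% of the 97, and lower in both were 130, which are 77.8% of the 167 and 58.6% of the 222. A single miRNA, miR-1188-5p, was past the limits in opposite directions. For the miR-10 pair the counts of the Htt-null-labelled libraries were 10127 and 10090451 (miR-10a-5p) and 25019 and 10131529 (miR-10b-5p). miR-181a-5p had 2088 and 603588 there, miR-219a-5p 14 and 8654, and miR-216b-5p 0 and 1308. Among ESC miRNAs, miR-182-5p had 1694470 and 165153 there. For each of these miRNAs the RA-DIFF library lay on the same side of the ESC library in both lines.

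**Figure D5:**
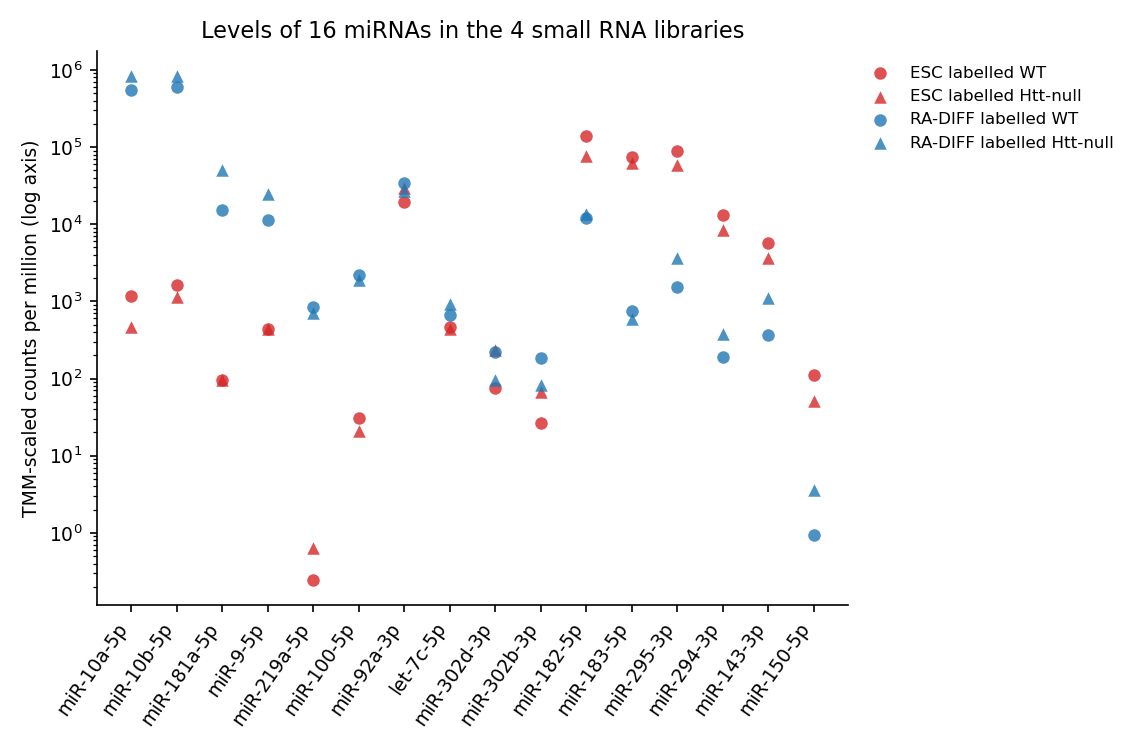
TMM-scaled CPM (counts relative to library total times TMM factor, log axis) of 16 miRNAs in the 4 small RNA libraries. ESC are in red and RA-DIFF in blue, with circles for libraries labelled wild type and triangles for those labelled Htt-null. For miR-10a-5p through miR-100-5p both RA-DIFF libraries lie above both ESC libraries and for miR-182-5p through miR-150-5p below them, whereas the stages overlap for miR-92a-3p and miR-302d-3p.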

How the data were processed

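Per the labels and the study's methods, total RNA was made into TruSeq small RNA libraries and sequenced as single-end reads of 50 bases. Adapters were removed by the authors (cutadapt 1.3), and inserts of 16 to 25 bases were aligned with BWA 0.7.5a-r418 against miRBase 21 mature sequences, with 1 difference allowed and only unique alignments retained. They deposited raw counts for 4 small RNA libraries; near-identical miRNAs (52 members) can lose or exchange reads. The deposited RNA counts (TopHat2 2.0.14, HTSeq 0.6.1, GRCm38.p4) were used for the named mRNAs, as CPM of the library total. All columns matched a sample by name.

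TMM factors came from edgeR 4.0.16 and size factors from DESeq2 as an alternative, with Python 3.11.15, scipy 1.17.1 and matplotlib 3.10.9 for the rest. A count of 0 to 3 was set to 3, the floor (0.233 CPM in ESC, 0.117 CPM in RA-DIFF), which made 57 ratios lower bounds and 60 upper bounds; where a named miRNA had 1 to 3 counts, its ratio is given as counted, with its interval. With 1 library a side no test was run, and calls use the log2 limit of 0.75. The functions were tested on simulated data. Named miRNAs are the 12 largest increases and decreases past the limit on all 3 scales with at least 1000 counts, the 10 most abundant per library, the leading members of 15 lists, the 8 largest arm shifts and the 6 most abundant seed families among those with at least 3 measured members that have a sequence in RefSeq; miRNAs named beyond this rule were chosen after their values were seen. Members and lists were chosen with earlier results of these data known. Positions are those of RefSeq on GRCm38 (841 of 846 members); 49 members have more than 1 locus, which counts cannot separate.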

Additional observations from a re-analysis of the deposited data

Results flagged for a closer look

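Among the miRNAs with opposite directions in the 2 lines on all 3 scales were miR-302c-3p, miR-302d-3p and miR-1188-5p, a difference that was not tested. miR-302c-3p had a log2 ratio of RA-DIFF over ESC of 1.91 in the line labelled wild type and -1.41 in the line labelled Htt-null, and miR-302d-3p had 1.57 and -1.27. miR-1188-5p, of the Dlk1-Dio3 domain, had 2.87 (interval 1.34 to 4.85) and -1.73, on 4 and 26 counts in the line labelled wild type and 60 and 10 in the other.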

How the results depend on the processing

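Scaling and the size limit both moved the counts of calls by over 1.5 times. From 283 higher and 306 lower miRNAs (TMM, limit of 0.75), they became 150 and 509 on the full total and 475 and 167 without miR-10a-5p and miR-10b-5p. With at least 100 counts in either library 180 were higher and 165 lower of 504, with the study's filter on mean log2 CPM 193 were lower, and at a limit of 2 they numbered 145 and 152. Past the limit on all 3 scales were 317, or 202 with at least 100 counts. Shifted arm ratios numbered 47 of 111 hairpins, 80 of 180 with an arm minimum of 10 and 29 of 65 with 200. TMM over 2 libraries, DESeq2 size factors, no filter, a limit of 1 and exchanged RA-DIFF labels kept each count within 1.5 times, but values within those counts moved. With exchanged labels 57 of 73 named log2 ratios, beside the 1 that reversed, shifted by more than their counting interval (median shift 0.49, up to 2.42) and 12 of 15 list medians by more than 0.1 (up to 1.62). For example, miR-199a-5p went from -4.94 to -2.51 and miR-295-3p from -5.87 to -4.59. DESeq2 size factors shifted every ratio by 0.076, past the counting interval of 34 named miRNAs. With at least 100 counts 12 of 15 list medians moved by more than 0.1, the mesenchymal one furthest, to -3.86. With the study's filter 7 did (by up to 0.48) and with no filter 4 did (by up to 1.49). Of 73 named miRNAs and 15 list medians, 5 called miRNAs and no called median changed direction: miR-92a-3p on the full total (-0.34), and without the miR-10 pair miR-127-3p (0.25), miR-148a-3p (0.052), miR-99b-5p (0.25) and miR-199a-3p (0.28), the last also with exchanged labels (1.49). No paired analysis was possible because the comparison sets 1 library against 1 and the labels give no replicate numbers. A fit of stage and line over all 4 libraries, which would compare the stages and not these libraries, was not run. The limits do not enter a ratio or a median, so these have no value under another limit. Depth limits low counts only, since a count of 0 allows up to 3 counts, and the spread between cultures of one condition is unknown.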
